A study of Mus musculus with 12 samples.

Results

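Nod1, Nod2, Nlrp3, Ripk2, Myd88 and Tollip are the cytosolic sensors and the adaptors of innate signalling on the nCounter Mouse Inflammation V2 panel. These genes were chosen by symbol and not by a cut on their values, but with earlier results of these data known. They made up 6 of the 248 genes tested. Their RNA was counted in 6 samples of blood monocytes (MNC) and 6 samples of Kupffer cells (KC), the resident macrophages of the liver, all from Balb/c mice; the labels name no treatment or genetic change and give no age. Each sample was a pool of sorted cells from 5 mice by the labels, and 100 ng of total RNA went into each assay. Blood monocytes were taken from the mononuclear fraction of a density gradient and Kupffer cells from livers digested with collagenases, and both were then held on magnetic beads against F4/80, so the cell types also differed in how they were prepared. A value is a normalized count, the number of colour-coded reporter molecules counted for a gene, scaled in each lane by the positive controls and by housekeeping genes.

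Nod1 and Nod2 are receptors in the cytosol that recognise fragments of bacterial peptidoglycan. Both pass the signal to the kinase Ripk2, which leads to activation of NF-kB and of MAP kinases. Nlrp3 senses disturbance of the cell and assembles an inflammasome, in which caspase-1 matures Il1b and Il18. Myd88 is the adaptor of the interleukin 1 receptor family and of most Toll-like receptors, and Tollip is an adaptor that binds the same receptor complexes and dampens their signal. Kupffer cells line the liver sinusoids and take up bacterial products that arrive from the gut through the portal vein.

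The promoters of the genes that passed the test (Nod1, Nod2 and Nlrp3), and that of Myd88, which held the rarest of the motifs searched, are printed here from RefSeq sequence of GRCm38.p6. That assembly is of the C57BL/6J strain, while the mice were Balb/c. Of the 250 bases before each annotated start, only the bases outside the annotated span of the gene are shown. These are chr6:54972675-54972862 on the minus strand for Nod1, chr8:88647097-88647314 on the plus strand for Nod2, chr11:59541319-59541568 on the plus strand for Nlrp3 and chr9:119340019-119340268 on the minus strand for Myd88. Capitals mark a match to the NF-kB form (3 G, any 5 bases, then 2 C) in Nod2 and Nlrp3, and to the interferon-stimulated response element (GAAA, any 2 bases, GAAA) in Myd88.
Nod1: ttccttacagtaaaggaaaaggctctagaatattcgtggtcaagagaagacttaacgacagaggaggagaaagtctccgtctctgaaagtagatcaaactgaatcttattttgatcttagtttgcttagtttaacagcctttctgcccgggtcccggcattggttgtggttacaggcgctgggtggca
Nod2: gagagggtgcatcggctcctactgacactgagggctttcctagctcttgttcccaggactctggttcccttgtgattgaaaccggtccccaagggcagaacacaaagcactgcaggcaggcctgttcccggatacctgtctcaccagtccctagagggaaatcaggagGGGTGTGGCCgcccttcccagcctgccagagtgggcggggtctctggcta
Nlrp3: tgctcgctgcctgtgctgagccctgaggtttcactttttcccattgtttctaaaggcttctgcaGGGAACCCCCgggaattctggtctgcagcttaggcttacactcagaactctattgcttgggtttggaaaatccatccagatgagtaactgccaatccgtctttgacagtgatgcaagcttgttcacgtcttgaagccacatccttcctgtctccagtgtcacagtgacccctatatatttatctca
Myd88: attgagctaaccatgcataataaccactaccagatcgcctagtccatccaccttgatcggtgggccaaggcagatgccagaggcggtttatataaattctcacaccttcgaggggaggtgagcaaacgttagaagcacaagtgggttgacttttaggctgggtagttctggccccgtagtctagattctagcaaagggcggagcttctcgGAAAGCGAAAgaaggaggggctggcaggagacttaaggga

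Both strands of 7 windows, each of 250 bases before a start, were searched for 4 motifs, and 5 members had such a window (Ripk2 had none in the table). The NF-kB form occurred in 4 members. The bases between this match and the start numbered 45 in Nod1, 72 in Nod2, 176 in Nlrp3 and 30 in Tollip. The match in Nod1 lay inside the annotated span of that gene and so was not printed. This form stood in 45.8% of all 32851 promoter windows of the table, so it is common. Only Myd88 held the response element, which stood in 2.98% of all windows. Between that match and the start lay 30 bases. A further start of Nlrp3, inside the gene, had 3 matches to the PU.1 core GAGGAA, which 23.3% of all windows held. The AP-1 site TGANTCA, present in 6.75% of all windows, had no match in these letters, and none of the 8 matches overlapped another. A match is a description of the letters only.

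All 6 members were above the background in all 12 samples. By limma, with Benjamini-Hochberg adjustment over all 248 genes and a threshold of 0.05, 3 members differed between the cell types. Nlrp3 and Nod2 were lower in KC and Nod1 was higher, the last with a direction that turned in scalings that left out Gusb or all housekeeping genes. Over all genes tested 56.5% passed this test, 35.1% higher in KC and 21.4% lower, against 3 of 6 members, 1 higher and 2 lower. In 3 of 6 members every KC sample lay on one side of every MNC sample, as was so for 41.5% of all genes. The counts for the members were thus close to those for the panel as a whole, which includes genes at the background. In a fit of the 196 genes above the background in at least 6 samples, 137 passed, 88 higher in KC and 49 lower. That is a larger share than over all genes. Over all genes 53 were lower in KC, and 86 without MNC 2, while the members called stayed 1 higher and 2 lower. The median log2 fold change was -0.12 over the members and 0.05 over all genes.

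**Figure D1:**
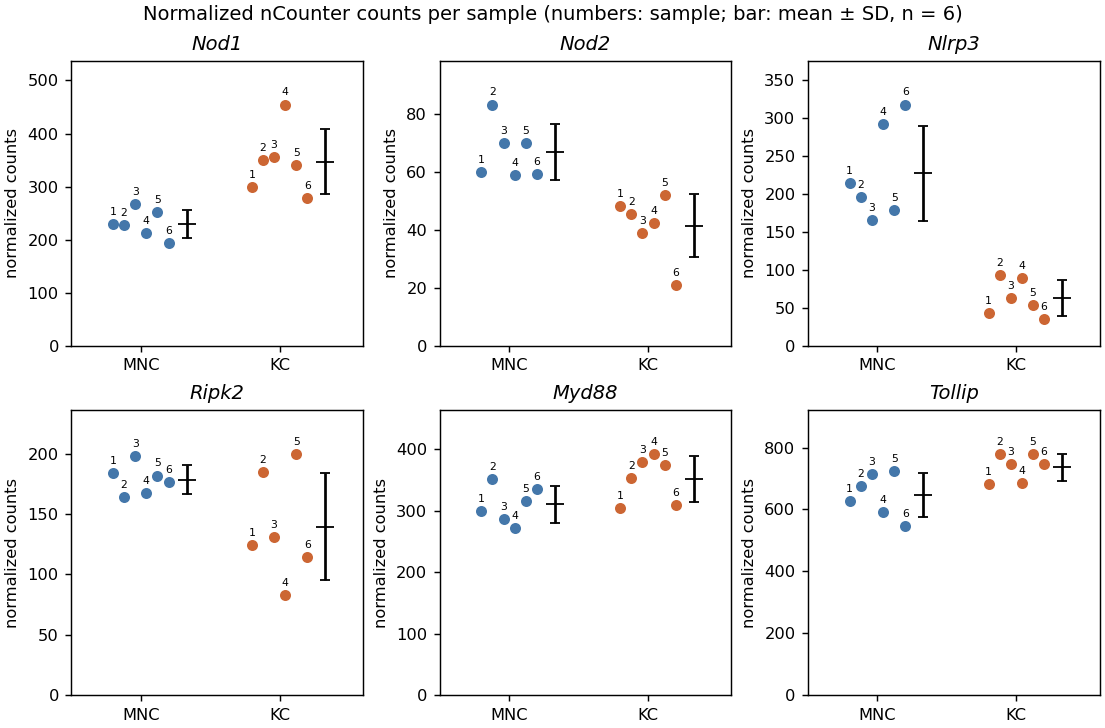
Normalized counts of each member (vertical axes, from 0) in the 6 MNC and 6 KC samples, with the sample number at each point and the mean ± SD beside the points. All KC samples lie below all MNC samples for Nod2 and Nlrp3 and above them for Nod1, while the points overlap for Ripk2, Myd88 and Tollip.

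Among the sensors, Nlrp3 (chr11:59541569-59566955) had the largest difference. In MNC its normalized counts were 214.41, 195.88, 165.64, 291.64, 179.45 and 317.75 in samples 1 to 6. In KC they were 43.06, 93.18, 62.36, 89.24, 54.34 and 35.93. Even the highest KC sample lay well below the lowest MNC sample, and MNC 4 and MNC 6 stood highest of all. The means were 227 ± 62.6 (SD, n = 6) in MNC and 63.0 ± 23.7 (SD, n = 6) in KC, a 3.67-fold lower level in KC with a log2 fold change of -1.88 (SE 0.25, 95% interval -2.43 to -1.33, limma adjusted p = 2.72e-05). The call held under every scaling and without any one sample. The lowest KC value, that of KC 6, came from 17 counted molecules, for which the exact Poisson interval is 9.90 to 27.2 molecules. Such intervals cover counting error only.

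Nod2 (chr8:88647315-88688474) was the lowest counted member and was also lower in KC. Its normalized counts in MNC 1 to 6 were 60.03, 83.31, 70.03, 58.94, 69.88 and 59.23. In KC 1 to 6 they were 48.27, 45.68, 38.98, 42.49, 52.17 and 21.14. The groups did not overlap, but the gap between MNC 4 and KC 5 was narrow, and KC 6 lay far below the other KC samples. The means were 66.9 ± 9.56 (SD, n = 6) in MNC and 41.5 ± 10.9 (SD, n = 6) in KC, 1.65-fold lower in KC with a log2 fold change of -0.72 (SE 0.20, 95% interval -1.15 to -0.29, limma adjusted p = 0.00754). The KC values rested on 10 to 37 molecules per sample, against 74 to 118 in MNC. The background of a lane, its highest negative control, was 7 to 14 counts in KC and 5 to 27 in MNC. Nod2 in KC was thus near the background, which was not subtracted. Its part in the size of the difference was not tested. In KC 6, 10 molecules were counted against a background of 7, with an exact Poisson interval of 4.80 to 18.4 molecules, or 10.1 to 38.9 normalized counts. Without KC 6 the difference was the smallest of those with a sample left out, -0.54 on the log2 scale, and it still passed the test.

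Nod1 (chr6:54923942-54972674) went the other way from Nod2. Its normalized counts in MNC 1 to 6 were 228.7, 227.4, 267.31, 212.66, 251.7 and 193.2. In KC 1 to 6 they were 300.08, 350.81, 356.63, 454.69, 341.26 and 279.01. The groups did not overlap, the nearest samples were MNC 3 and KC 6, and KC 4 was the highest. The means were 230.2 ± 26.6 (SD, n = 6) in MNC and 347 ± 60.9 (SD, n = 6) in KC, with a log2 fold change of 0.58 (SE 0.14, 95% interval 0.28 to 0.88, limma adjusted p = 0.00305), but the log2 fold change was -0.073 with Gusb left out of the housekeeping genes and -0.81 with positive controls alone. By exact permutation tests over the samples, Nod1, Nod2 and Nlrp3 each reached 0.00216, the smallest two-sided p that 6 against 6 samples can give.

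Among the adaptors, Ripk2 (chr4:16122732-16163678), the kinase that both NOD receptors use, was even between MNC samples and uneven between KC samples. Its normalized counts in MNC 1 to 6 were 183.68, 164.36, 197.96, 167.09, 181.81 and 176.04. In KC 1 to 6 they were 123.95, 184.54, 130.57, 82.86, 199.97 and 114.14. KC 5 lay above every MNC sample and KC 2 within their range, while the other 4 lay below the lowest. The coefficient of variation was 6.87% in MNC and 31.9% in KC. The means were 178 ± 12.3 (SD, n = 6) and 139 ± 44.4 (SD, n = 6), and the log2 fold change of -0.41 (SE 0.19, 95% interval -0.83 to 0.00338) missed the threshold, with a limma adjusted p of 0.0815. Without KC 5 it was -0.53 (limma adjusted p = 0.0251) and without KC 2 it was -0.51 (limma adjusted p = 0.0381). These were the highest KC samples, and each was left out alone. No other single omission brought Ripk2 past the test, and without KC 4, the lowest, it was -0.28 (limma adjusted p = 0.148).

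Myd88 (chr9:119335934-119340018) did not pass the test. Its normalized counts in MNC 1 to 6 were 300.17, 351.23, 286.84, 272.2, 316.25 and 336.02. In KC 1 to 6 they were 304.0, 352.64, 380.02, 393.07, 373.87 and 308.61. KC 2 to KC 5 lay above the highest MNC sample, the first of them barely, and KC 1 and KC 6 lay within the MNC range. The log2 fold change was 0.18 (SE 0.12, 95% interval -0.08 to 0.44, limma adjusted p = 0.195).

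Tollip (chr7:141881580-141902461) likewise did not pass. Its normalized counts in MNC 1 to 6 were 628.22, 675.45, 714.41, 591.79, 724.3 and 544.71. In KC 1 to 6 they were 681.06, 780.19, 746.4, 686.28, 780.34 and 746.15. KC samples 2, 3, 5 and 6 exceeded every MNC sample, and KC 1 and KC 4 did not. The log2 fold change was 0.19 (SE 0.11, 95% interval -0.05 to 0.44, limma adjusted p = 0.146). With a rescaling to the median gene both adaptors had differences just under 0, -0.080 for Myd88 and -0.066 for Tollip. Other scalings called them lower in KC: Myd88 after quantile normalization (-0.28, limma adjusted p = 0.0228), and without Gusb both Myd88 (-0.48, limma adjusted p = 0.0299) and Tollip (-0.46, limma adjusted p = 0.0230). With positive controls alone both were also called lower, at -1.21 and -1.20.

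The absolute direction of small differences depended on the scaling. The 4 housekeeping genes in the table themselves differed between the cell types. Gusb, a lysosomal glucuronidase, had a log2 difference between KC and MNC of -1.53, while Pgk1 and Gapdh, both of glycolysis, had 0.91 and 0.75, and Cltc, the clathrin heavy chain, had 0.31. Leaving out Gusb moved the median log2 fold change of the 160 genes above the background in all samples from 0.13 to -0.52, and using positive controls alone moved it to -1.25. The split of calls moved with it, from 62.1% higher in KC to 22.0% and 12.2%. It was 38.9% after rescaling to the median gene, 47.7% after quantile normalization and 74.5% where the background entries were multiplied by the lane factor. Relative to the median of those 160 genes, the members stood at 0.45 (Nod1), 0.06 (Tollip), 0.05 (Myd88), -0.54 (Ripk2), -0.85 (Nod2) and -2.01 (Nlrp3) on the log2 scale. Tollip and Myd88 thus stood near the middle of the panel.

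**Figure D2:**
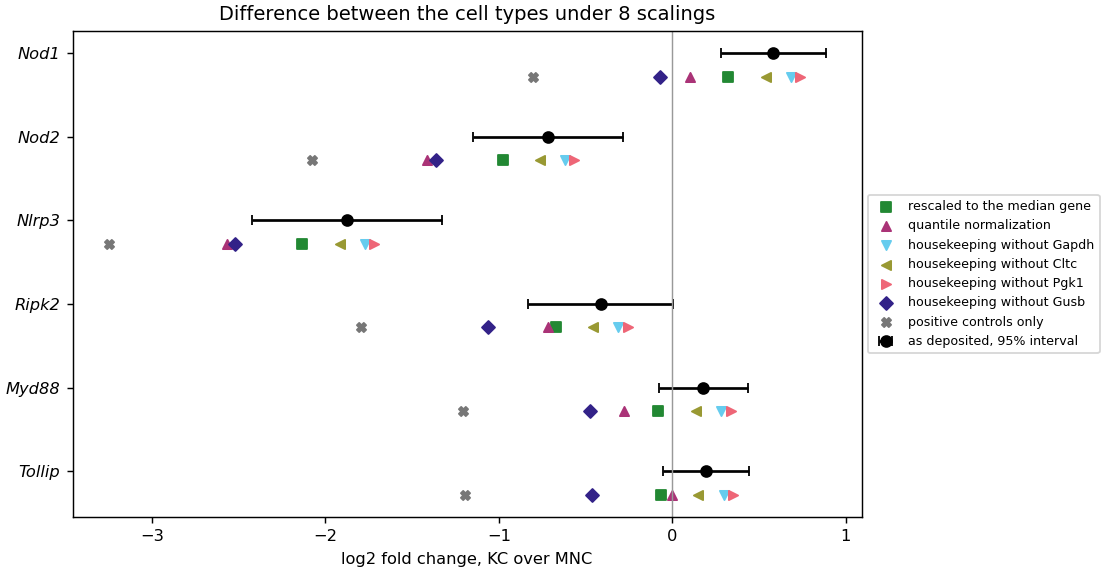
Log2 fold change of KC over MNC (horizontal axis) for each member as deposited, with its 95% interval (black), and under 7 other scalings (coloured markers below). Nlrp3, Nod2 and Ripk2 stay below 0 under each scaling shown, whereas Nod1, Myd88 and Tollip cross it.

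Ratios between members within a sample do not contain the lane factor, so that they do not depend on the choice of housekeeping genes. They were compared between the cell types for all 15 pairs by exact permutation tests, two-sided and adjusted over the pairs. Probes differ in efficiency, so only the difference in a ratio between cell types was read, and not the ratio itself. Of the 15 pairs, 13 differed and 8 did not overlap. These pairs share genes and are not independent of each other. The share over all gene pairs of the panel was not computed, so the counts are not read as particular to the members. Among single genes 56.5% passed the limma test. Nod1 rose against each of the other members and Nlrp3 fell against each of them.

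**Figure D3:**
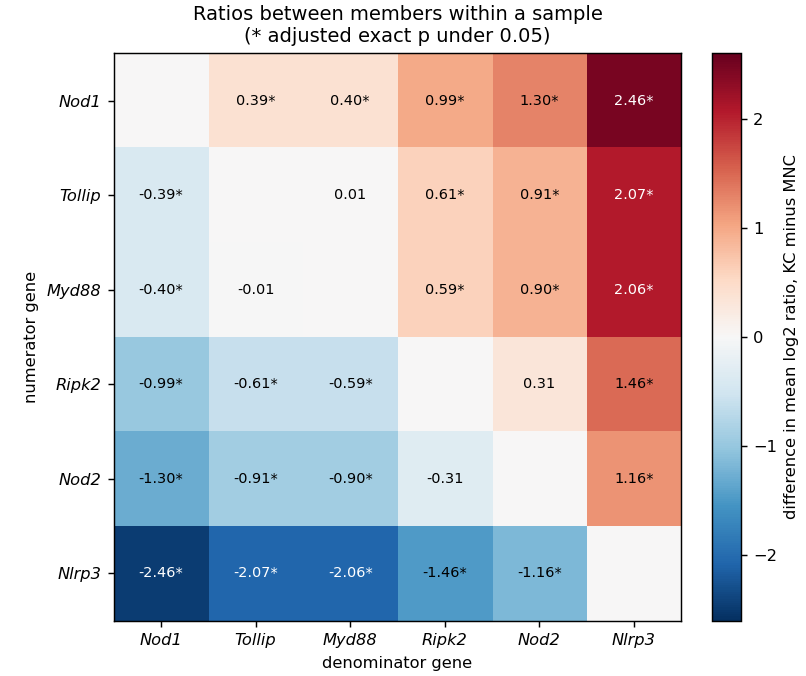
Difference between KC and MNC in the mean log2 ratio of the gene in each row to the gene in each column, with an asterisk where the adjusted exact p was under 0.05. Nod1 gained on all the others, up to 2.46 against Nlrp3, while Myd88 and Tollip differed from each other by 0.01.

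The ratio of Nod1 to Nod2 was 2.73 to 3.82 in MNC (median 3.60) and 6.22 to 13.2 in KC (median 8.41). The sensors thus shifted apart in every KC sample, by 2.46-fold or 1.30 on the log2 scale (SE 0.18). The adjusted exact permutation p was 0.00406, the smallest found among the 15 pairs. The ratio of Nlrp3 to Myd88 was 0.558 to 1.07 in MNC and 0.116 to 0.264 in KC, a 4.16-fold fall without overlap (log2 difference -2.06, adjusted exact p = 0.00406). Ripk2 fell against Tollip as well, from 0.243 to 0.323 in MNC to 0.121 to 0.256 in KC, with some overlap and an adjusted exact p of 0.00812. Ripk2 also fell against Myd88, by 0.59 on the log2 scale (adjusted exact p = 0.0150). So Ripk2, which missed the threshold on its own, lost ground to both of the other adaptors within samples.

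A pair of ratios did not pass. Nod2 against its kinase Ripk2 had a log2 difference of -0.31 with an interval of -0.76 to 0.15 by limma and an adjusted exact permutation p of 0.23. Without KC 4, the sample with the least Ripk2, it was -0.46 (adjusted exact permutation p = 0.0371). Myd88 against Tollip differed by -0.01, with a limma interval of -0.34 to 0.31 and an adjusted exact permutation p of 0.900.

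**Figure D4:**
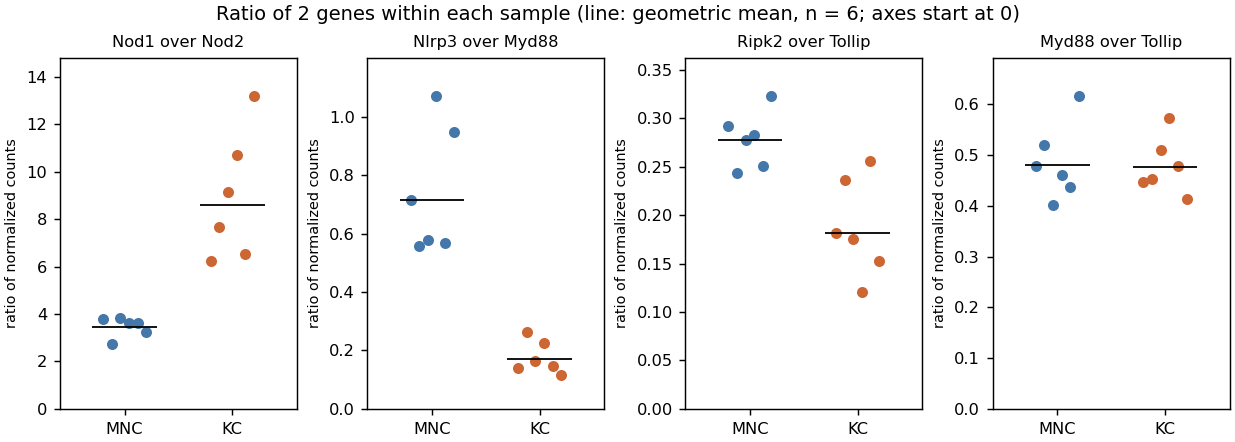
Ratio of normalized counts of 2 members within each sample (vertical axes, from 0), with a line at the geometric mean of the 6 samples of a cell type. MNC and KC separate for Nod1 over Nod2 and for Nlrp3 over Myd88, overlap in part for Ripk2 over Tollip, and share their range for Myd88 over Tollip.

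The members also differed in how evenly they were expressed among samples of a cell type. In KC the coefficient of variation ran from 5.95% (Tollip) and 10.7% (Myd88) to 26.4% (Nod2), 31.9% (Ripk2) and 37.6% (Nlrp3). In MNC it ran from 6.87% (Ripk2) to 27.5% (Nlrp3). Nlrp3 thus varied most in both cell types. For Nod2 in KC, the SD on the log2 scale was 0.46, of which counting alone would give 0.33. For Nlrp3 and Ripk2 in KC the SDs of 0.54 and 0.46 stood against 0.27 and 0.18 from counting, more than counting error gives.

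Among the 6 MNC samples, the level of Nlrp3 ran opposite to those of Nod1 and Tollip. Pearson's r of Nlrp3 was -0.97 with Tollip and -0.95 with Nod1, and without the 2 samples farthest from the median it was -0.97 and -0.93. Among the 6 KC samples Nlrp3 instead ran with Nod1 (r = 0.85, exact permutation p = 0.0292, adjusted 0.153, and r = 0.99 without the 2 farthest samples), and its r with Tollip was 0.10. The level of Nlrp3 also ran opposite to the sum of 12 genes that mark T and NK cells, which was highest in MNC 3 at 8540 normalized counts and lowest in MNC 6 at 4469. For that relation r was -0.97 (exact permutation p = 0.00278) and Spearman's rho was -0.94 (exact permutation p = 0.0167), with r = -0.83 without the 2 farthest samples. For Tollip and the same sum r was 0.97 (exact permutation p = 0.00556), with rho = 0.83 and r = 0.88 without the 2 farthest samples. Over the 42 relations computed within cell types, none passed after adjustment, and the lowest adjusted p by the exact permutation test was 0.0583. Of the 12 genes in that sum, Ccl5 had the highest mean in MNC, 3906 normalized counts. The values share their lane factors, and the part of T and NK cells in the spread was not tested.

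**Figure D5:**
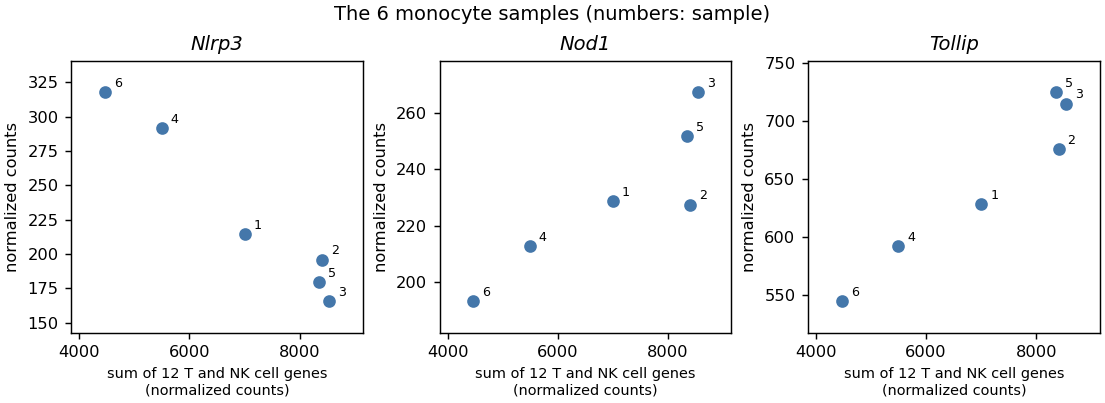
Normalized counts of Nlrp3, Nod1 and Tollip (vertical axes, not from 0) against the summed normalized counts of 12 T and NK cell genes (horizontal axes) in the 6 MNC samples, with the sample number at each point. Nlrp3 is lowest in MNC 3, where that sum is highest at 8540, while Nod1 and Tollip are lowest in MNC 6, where it is lowest at 4469.

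Markers of other cells moved with the comparison between cell types. All 10 hepatocyte genes on the panel were higher in KC, with a sum of 4497 to 15348 normalized counts against 63.1 to 270.0 in MNC, where 7 of them were at the background in every sample. Of 12 T and NK cell genes 6 were higher in KC. The 1 called lower (Il13) was above the background in only 1 sample. Their sum was 10949 to 37304 in KC against 4469 to 8540 in MNC. Ccl5, which NF-kB also induces, was its largest part, with means of 14244 in KC and 3906 in MNC. The next highest genes, Ltb and Cd4, did not pass. Of 8 macrophage and monocyte genes 1 was higher in KC and 6 were lower, with a sum of 6398 to 11221 against 17410 to 28187, and none of the 8 was at the background in all samples of a cell type. In bulk samples, fewer cells of a type and less RNA per cell cannot be told apart. The part of these markers in the members' differences was not tested.

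Set against the summed macrophage and monocyte genes in the same sample, Nlrp3 was lower in KC, by 0.56 on the log2 scale (adjusted exact permutation p = 0.00325). These marker genes themselves differed between the cell types, and their part in the ratio was not tested. Nlrp3 was 8.99 to 11.3 per 1000 counts of these markers in MNC and 5.49 to 8.30 in KC, with no overlap. The marker sum was itself lower in KC, so a gene with an even level comes out higher by construction. Other genes of the panel were not set against it, so whether a direction is particular to the members was not tested. On this measure, added after the values were seen, the other 5 members were all higher in KC, from 0.60 (Nod2) and 0.90 (Ripk2) to 1.90 (Nod1). The direction of Nod2 was thus opposite to that of its level, and its adjusted exact permutation p of 0.0498 passed narrowly and was up to 0.108 with a sample left out.

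The genes whose profiles were most like a member's over the 12 samples, of 159 above the background throughout, were found by Pearson's r, given here as a description. For Nlrp3 they were Tyrobp (r = 0.99), a signalling adaptor of myeloid cells, the receptor Tlr8 (r = 0.99) and the complement gene C1qa (r = 0.99). With the means of the cell types removed, the r of these genes with Nlrp3 was still 0.95, 0.95 and 0.93. For Nod1 they were the macrophage growth factor Csf1 (0.97, and 0.89 with means removed), Cd40lg (0.94 and 0.81), a ligand of activated T cells, and Rapgef2 (0.93 and 0.78). For Nod2 they were Tlr6 (0.82 and 0.63), the costimulatory ligand Cd86 (0.82 and 0.51) and Hif1a (0.78 and 0.49). For Tollip they were Hmgb1 (0.94), Map2k1 (0.92) and Rps6ka5 (0.90), for Ripk2 Mef2d (0.84), H2-Eb1 (0.84) and H2-Ea-ps (0.83), and for Myd88 Csf1 (0.75), Il18rap (0.73) and Cd163 (0.73). The profile of Myd88 was the least closely matched of the 6.

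Upstream of Myd88, most receptors that signal through it were lower in KC. Of 12 measured receptor genes, 7 were lower, 2 were higher and 3 did not pass. Over the 10 of them above the background in all 12 samples the median log2 fold change was -0.72, against 0.13 over all 160 such genes. Tlr8, a receptor in endosomes, fell by 1.90 on the log2 scale, Tlr2, which binds bacterial lipoproteins, by 1.84 and Tlr4, the lipopolysaccharide receptor, by 1.00. The interleukin 1 receptor Il1r1 went the other way, with a log2 fold change of 4.07 (limma adjusted p = 9.94e-07) and 4 of 6 MNC samples at the background. The interleukin 18 receptor chain Il18rap had 1.19, which was -0.20 with positive controls alone.

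Downstream, 6 of 13 kinase genes were higher in KC and none was lower (median 0.35 over the 11 above the background in all samples), but without Gusb among the housekeeping genes 7 were lower and 0 higher. Examples were Map2k6 (log2 fold change 1.05) and Map2k4 (0.56), which activate p38 and JNK, and Map3k7 (0.83), the kinase TAK1 that Ripk2 and Myd88 signalling share, and all 3 were below 0 with positive controls alone, Map2k4 also without Gusb. Of 9 transcription factor genes 4 were higher and 1 lower, with a median of 0.46 over the 8 above the background in all samples. Jun and Fos, which form AP-1, had log2 fold changes of 2.31 and 1.96 and were higher under every scaling. Irf7 and Atf2 were each at 0.69, but at only 0.038 and 0.037 without Gusb and below 0 with positive controls alone. Irf5, the 1 lower gene, named after its value was seen, fell by 0.64. The NF-kB genes Nfkb1 (log2 fold change -0.12, limma adjusted p = 0.462) and Rela (0.22, limma adjusted p = 0.131) did not pass.

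The genes on a list induced by NF-kB, cytokines and chemokines with the enzyme genes Ptgs2 and Nos2, went both ways. Of 16, 5 were higher (Nos2 among them), 4 lower and 7 not past the test. Over all genes 35.1% were higher in KC and 21.4% lower. Of these 16 genes, 10 were above the background in all samples, with a median of -0.61, and 3 (Il12b, Il23a and Cxcl5) were above it in at most 1 sample, where a difference is one between background entries. The neutrophil chemokines Cxcl2 and Cxcl1 fell by 4.81 and 4.69 on the log2 scale. Ccl4 and Ccl3, which attract monocytes and lymphocytes, rose by 2.59 and 2.03 and did so under every scaling. Of a list of partners and products of the Nlrp3 inflammasome, 5 genes were measured: Il1a, Il1b, Il18, Il1rn and Hmgb1. The caspase-1 gene was not among them. Il1rn, the antagonist of the interleukin 1 receptor, was above the background in only 1 MNC and 2 KC samples. Of the 5, only Il18 passed, at 142 normalized counts in MNC and 214 in KC (log2 fold change 0.59, limma adjusted p = 0.000646). It was higher except without Gusb (-0.06) and with positive controls alone (-0.79). Il1b, the other cytokine matured by this inflammasome, had a log2 fold change of -0.65 and did not pass (limma adjusted p = 0.120).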

How the data were processed

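The deposited unit is a signal for each gene in each sample, reporter counts that the authors normalized in nSolver by the positive controls and by housekeeping genes, with geometric means. Genes under the highest negative control were deposited at that background count, not multiplied by the lane factor. The housekeeping genes Cltc, Gapdh, Gusb and Pgk1, with 6 positive and 8 negative controls, were kept out of the 248 genes tested, and the others were not analysed here. All sample columns were mapped by name.

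The lane factor was found as the step that divides every value over the background into whole numbers, within 0.02. It gave 158730 to 339100 counted molecules per MNC sample and 80944 to 140029 per KC sample over the tested genes, so that low genes are less precise in KC. Of the tested genes 160 were above the background in all samples. Because the background entries were left unscaled, no count model was used.

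The test, two-sided, was limma 3.58.1 (R 4.3.3) applied to log2(value + 1) over the 12 samples in their 2 cell types, with Benjamini-Hochberg adjustment. Fold changes are on that scale. Ratios within samples and correlations were tested by exact permutation of the samples in Python 3.11.15 with scipy 1.17.1, numpy 2.4.6 and pandas 2.3.3, and figures were drawn with matplotlib 3.10.9. Tested on simulated data for this comparison with 248 genes, the steps called 0 of 208 unchanged genes, 5 of 10 changed by 0.5 on the log2 scale, 7 of 10 changed by 1 and 10 of 10 changed by 2 or by 3. The simulated log2 values were normal, with the same spread of a gene in both cell types. They held no error of scaling and no background entries, so false calls from these were not tested. Nothing in the labels says that pools with different numbers shared no preparation, so the p-values measure the spread between these samples.

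The members and the gene lists were chosen with earlier results of these data known. The genes named were all 6 members, for each member the 3 genes with the highest r, and of each list up to 4 genes that passed without overlap, by size, with Il1b, Il18, Tlr2, Tlr4, Nfkb1 and Rela in any case. Irf5 was named outside this rule, after its value was seen. Alternatives were another pseudocount (10), a filter on low genes, other scalings, a common floor, the replicate number as a block, exact permutation tests and each sample left out in turn. Scalings without Cltc, Gusb or Pgk1, scaling by positive controls alone, the limma fit of the ratios and the ratios to macrophage genes were added after the data were seen. Of the marker lists fixed, endothelial cells had 1 gene on the panel, Flt1, at 52.2 to 151 in KC and 9.01 to 27 in MNC, and neutrophils had 2, of which Cxcr1 was above the background in only 1 of the 12 samples, an MNC sample, so that its lower call compares background entries.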

Additional observations from a re-analysis of the deposited data

Results flagged for a closer look

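Of the 42 sets of 6 samples examined (6 members and 15 ratios in each cell type), 5 held a sample that stood apart from the others by Dixon's 95% criterion for the gap of an extreme value over the range, all of them ratios. Chance alone marks about 1 in 20 such sets. In KC 4 the ratio of Nod1 to Ripk2 was 5.49, that of Nod1 to Myd88 was 1.16, that of Nod1 to Tollip was 0.663 and that of Nlrp3 to Ripk2 was 1.08, each the highest of the 6 KC samples. KC 4 had the highest Nod1, 454.69 normalized counts, and the lowest Ripk2, 82.86. In MNC 2 the ratio of Nod2 to Ripk2 was 0.507, the highest of the MNC samples. MNC 2 had the highest Nod2, 83.31 normalized counts, and the lowest Ripk2, 164.36, of the MNC samples. The 4 ratios of KC 4 share Nod1 or Ripk2 and are not independent of each other.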

How the results depend on the processing

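The levels of Nlrp3 and Nod2 kept direction and call under every alternative, and Nod2 ran from -0.79 to -0.54 with each sample left out. Set against the summed macrophage and monocyte genes, Nod2 was instead higher in KC, by 0.60. Nod1 was 0.10 after quantile normalization (limma adjusted p = 0.426), -0.073 without Gusb and -0.81 with positive controls alone. Ripk2 passed after rescaling to the median gene (-0.67), quantile normalization (-0.72), without Gusb (-1.07) and with positive controls alone (-1.80), and ran from -0.53 to -0.28 with a sample left out. In the same order Myd88 was -0.080, -0.28, -0.48 and -1.21, and Tollip -0.066, -0.0047, -0.46 and -1.20, while Tollip passed at 0.19 with a common floor. Members called higher in KC were 0 after quantile normalization, 0 without Gusb, 0 with positive controls alone and 2 with a common floor; those lower were 4, 5 and 6 in the first 3, and 2 to 3 with a sample left out. Under the sample omissions Myd88 over Tollip ran from -0.067 to 0.057 and Nod2 over Ripk2 from -0.46 to -0.17. The other ratios between members kept their calls. Genes called higher and lower of the 13 kinases were 2 and 4 after rescaling to the median gene, 2 and 3 after quantile normalization and 0 and 12 with positive controls alone. Without Gusb and with positive controls alone, transcription factors higher and lower were 2 and 4, then 2 and 7. Genes of the list induced by NF-kB were lower in 11 cases in both. Of the inflammasome list 3 and 5 were lower with 0 higher, and receptors higher were 1 in both. After rescaling to the median gene, 3 transcription factors, 10 genes induced by NF-kB and 3 genes of the inflammasome list were lower. Over all genes, positive controls alone gave 221 calls, against 140, and left 27 higher and 194 lower. These settings moved the scale of all genes by construction. The replicate number as a block changed no member's call (Ripk2 at -0.41, limma adjusted p = 0.0910). Same-numbered samples correlated at -0.15 to 0.29 and 2 of 6 best with their own number. Such correlations between cell types cannot settle whether same-numbered samples were paired. Depth limits Nod2 most, at 10 molecules in KC 6.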
